A study of Mus musculus with 2 samples.

Results

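The Slc25a genes encode the mitochondrial carrier family, a set of related membrane proteins that move metabolites, nucleotides and ions across the inner mitochondrial membrane. They were examined in mouse liver on 2 expression arrays, as every gene whose only platform symbol starts with Slc25a. The rule found 44 genes among 18193 named genes. It used names and no measured value. The 44 genes were read by 93 probe sets, a probe set being a group of short probes for the same transcript. A single probe set stood for 21 genes, and the other 23 had several.

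Carriers of this family share a fold of repeated membrane-spanning segments and mostly work as exchangers, taking in a molecule of one kind as they let another out. In hepatocytes they link the matrix to the cytosol for ATP export, for the urea cycle, for gluconeogenesis, for the export of citrate to lipid synthesis and for the entry of acylcarnitines into beta-oxidation. PDK4, the kinase carried by the vector of this study, inactivates the pyruvate dehydrogenase complex in the matrix, on the inner side of the membrane that these carriers span.

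All mice were C57BL/6J, 2 months of age, and all received adenovirus through the tail vein at 1000000000 plaque-forming units each. The control group, Ad-control, received the empty vector, and the Ad-PDK4 group received the vector that overexpresses PDK4. Livers were taken at day 3. The livers of 4 Ad-control mice were pooled for 1 array and those of 3 Ad-PDK4 mice for the other, so each group is 1 measurement and the variation between mice is not known. No p-value can be given for any difference, and all values below describe these 2 pools.

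Values are linear signals of the deposited table, and both arrays have a mean of 500 once the 2% of values at either end are left out. A floor for low signals was set at the 50th percentile of each array, 93.4 for Ad-control and 99.9 for Ad-PDK4. Differences are log2, Ad-PDK4 minus Ad-control, and centred on the median of 20151 probe sets above both floors. A gene is given by its brightest probe set, and where 1 array is under its floor only a bound is given, written "at least N-fold". Probe sets of the same gene disagreed with a pooled SD of 0.35 (log2, 4326 genes), and within the carriers alone with one of 0.22. Such disagreement is the only scale of error here and leaves out error shared by a whole array or pool. Pdk4 itself read 234 in Ad-control and 177 in Ad-PDK4. Whether its probe set reads the vector's transcript is not known, so that value does not check the labels. The hepatocyte markers Alb, Apoa1, Ttr, Cps1 and Tat were all within 1.5-fold between the pools, with signals from 21622 (Tat in Ad-PDK4) to 110783 (Ttr in Ad-control). In pooled tissue, fewer cells of a type and less RNA per cell cannot be told apart.

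Most of the carrier family was readable in liver and differed little between the pools. Of the 44 genes, 33 passed both floors, 3 passed that of Ad-PDK4 alone, 2 passed that of Ad-control alone and 6 passed none. Among the 38 above the floor on at least 1 array, 6 (15.8%) were at least 1.5-fold lower in Ad-PDK4: Slc25a25, Slc25a37, Slc25a26, Slc25a10, Slc25a34 and, by its bound, Slc25a24. The background for that count is 5.58% of 12121 genes. Only Slc25a27 (2.63%) was at least 1.5-fold higher, and only by its bound, where the background is 11.0%. Over the 33 carriers above both floors, 5 were lower against a background of 5.20%, and 0 were higher against 9.21%. Their median log2 difference was -0.056, where that of all 10389 genes above both floors was 0.015. The carriers ran from -0.87 (Slc25a25) to 0.47 (Slc25a11), with 19 below 0 and 14 above. These counts describe 2 pools and no test stands behind them.

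The reference of the comparison matters for these counts. All values are relative to the middle transcript of the array. Against it, 24 control probe sets above both floors had a median log2 difference of -0.54 (range -0.96 to 0.20). They read the poly-A RNAs that are usually added before labelling, in amounts not known here. Another 18 control probe sets, those for hybridization, had a median of -0.26 (range -0.49 to -0.072). Centred on the poly-A controls, 16 carriers would be at least 1.5-fold higher, 0 lower, and the carrier median 0.49. Of all genes, 47.9% would then be higher and 0.479% lower. That choice shifts all values alike and leaves the order of the carriers above both floors as it is.

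**Figure D1:**
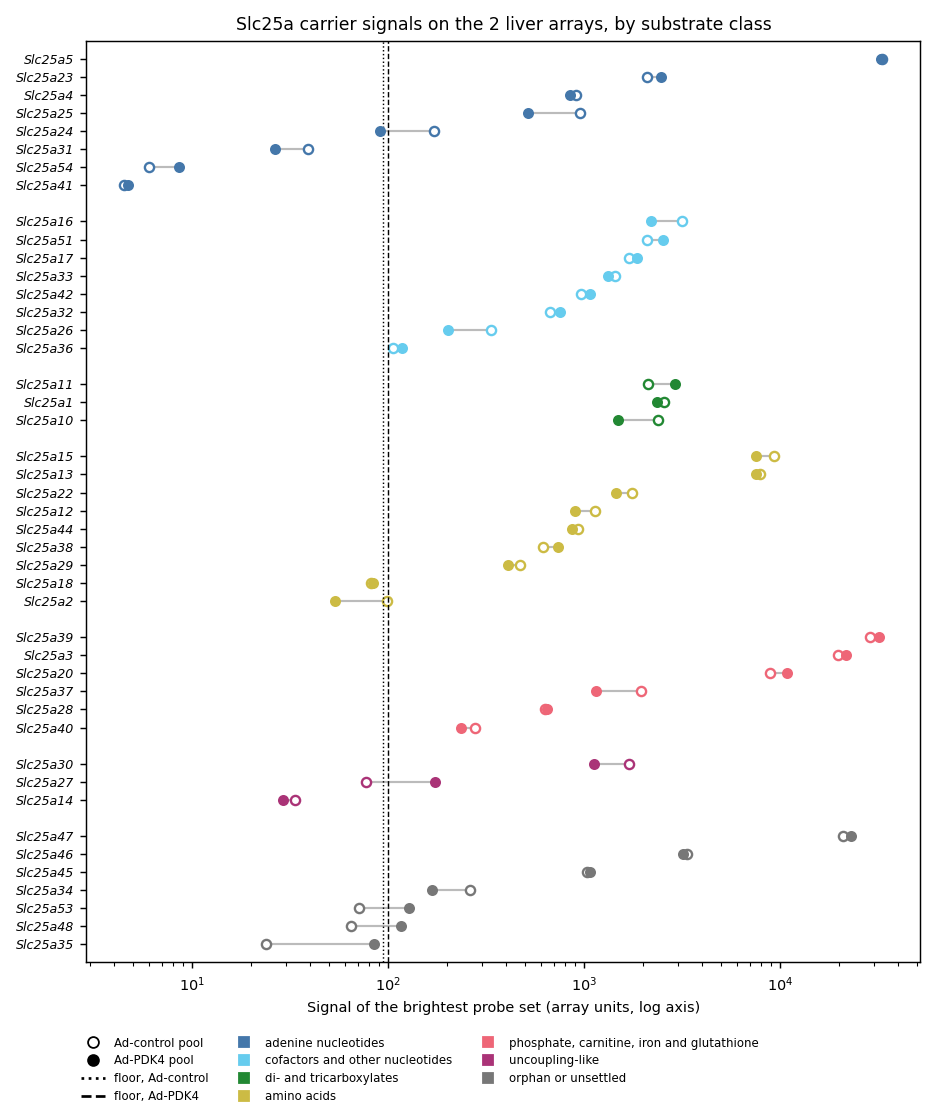
Signals of the 44 Slc25a genes (brightest probe set, array units, log axis) in the Ad-control pool (open circles) and the Ad-PDK4 pool (filled circles), grouped by substrate class, with the floor of each array as a vertical line. Slc25a5, Slc25a39, Slc25a47 and Slc25a3 have mean signals from 20615 to 32885, and 6 genes lie under both floors.

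Ordered by signal, the brightest carriers were Slc25a5, Slc25a39, Slc25a47 and Slc25a3. Their mean signals (geometric, over the 2 arrays) were 32885, 30280, 21891 and 20615, and even the last exceeded 97.7% of the named genes above both floors. Next came Slc25a20 at 9796, Slc25a15 at 8345 and Slc25a13 at 7656. A signal depends on the probes as well as on the transcript, so this order is one of array readings and not of transcript numbers. The limit is visible within genes: the 8 probe sets of Slc25a5 read between 2013 and 33175 on the Ad-control array. Slc25a39 read 28768 there on a probe set of the kind _x_at, and 3829 on its brightest one of another kind. The only probe set of Slc25a47 is of the kind _s_at. Both kinds can match several transcripts, so the places of Slc25a39 and Slc25a47 in this order are not settled.

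Among carriers above both floors, the adenine nucleotide class held both the one closest to 0, Slc25a5, and the one farthest from it, Slc25a25. Slc25a5, the ubiquitous ADP/ATP carrier that exports ATP from the matrix, read 33175 in Ad-control and 32597 in Ad-PDK4, a log2 difference of -0.011. All 8 of its probe sets lay between -0.19 and 0.087. Slc25a4, the form of heart and skeletal muscle, read 906 and 846, a difference of -0.084. Its 3 measured probe sets ran from -0.34 to -0.043. Both carriers were thus level within the disagreement of probe sets. Slc25a31, the ADP/ATP carrier of male germ cells, was under both floors (39.1 and 26.3).

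Slc25a23, Slc25a24 and Slc25a25 exchange ATP-Mg for phosphate under the control of calcium and so set the size of the matrix nucleotide pool. Among them, Slc25a23 was slightly higher, at 2087 in Ad-control and 2446 in Ad-PDK4 (log2 difference 0.24). Slc25a25 was lower, at 953 in Ad-control and 515 in Ad-PDK4, a log2 difference of -0.87 or 1.83-fold, the lowest among carriers above both floors. A further probe set of Slc25a25, of the kind (_x_at) that can match several transcripts, read 218 and 113 and gave -0.93. The last one read 48.1 and 130, under the floor in Ad-control and at least 1.41-fold higher in Ad-PDK4, so the 3 probe sets of this gene did not all go one way. Slc25a24 read 172 and 90.8, under the floor in Ad-PDK4, and was at least 1.70-fold lower. Slc25a41, a short relative without the calcium-binding part, and Slc25a54 were under both floors, below 10 on both arrays. On their brightest probe sets, Slc25a25 and, by its bound at dim signals, Slc25a24 were lower. Slc25a23 lay above 0 on its only probe set, by less than the SD between probe sets over all genes. Whether the calcium-regulated carriers went in different directions is therefore not settled.

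Slc25a25 has 3 start sites in the RefSeq table of GRCm38.p6, and the 250 bases before each are shown because it has the lowest value among carriers above both floors and its probe sets disagree. Capitals mark CCAAT (or its reverse complement ATTGG) and, in the last window, the full cAMP response element TGACGTCA. Sequences are 5′ to 3′ on the minus strand, from chr2:32451471-32451720, chr2:32431152-32431401 and chr2:32424067-32424316.
Slc25a25 start A: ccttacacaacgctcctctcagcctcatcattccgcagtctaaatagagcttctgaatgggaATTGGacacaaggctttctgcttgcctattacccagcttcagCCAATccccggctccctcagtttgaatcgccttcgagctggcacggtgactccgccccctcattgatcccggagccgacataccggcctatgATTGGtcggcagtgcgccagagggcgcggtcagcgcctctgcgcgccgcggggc
Slc25a25 start B: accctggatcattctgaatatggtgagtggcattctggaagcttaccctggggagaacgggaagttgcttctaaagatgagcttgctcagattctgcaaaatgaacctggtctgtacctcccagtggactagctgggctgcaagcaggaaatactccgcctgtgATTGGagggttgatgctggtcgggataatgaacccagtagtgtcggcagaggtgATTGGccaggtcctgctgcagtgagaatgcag
Slc25a25 start C: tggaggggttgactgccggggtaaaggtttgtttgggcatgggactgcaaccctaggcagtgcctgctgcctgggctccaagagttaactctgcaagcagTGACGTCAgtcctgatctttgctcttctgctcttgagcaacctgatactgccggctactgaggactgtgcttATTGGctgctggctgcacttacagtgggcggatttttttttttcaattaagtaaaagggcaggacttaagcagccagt
The windows hold CCAAT 3, 2 and 1 times. TGACGTCA occurs before start C alone, with its first base at position -150 from the start. Which start each probe set reads is not known here.

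Motifs were counted on both strands in 43 windows of this length for 34 carriers and in all 32851 windows of the table. The windows of Slc25a14 overlap, as do those of Slc25a23, so the same site can be counted again in the shares below. This happened for the E-box and TGACG of Slc25a14 and for CCAAT of Slc25a23. TGACGTCA was in 2 carrier windows (4.65%), those of Slc25a25 and Slc25a36, and in 1.55% of all windows. Its shorter form TGACG, which overlaps it, was in 25.6% of carrier windows and 17.8% of all. CCAAT was in 46.5% against 33.8%. The E-box CACGTG was in 18.6% against 6.02%, in the windows of Slc25a1, Slc25a13, Slc25a14, Slc25a15, Slc25a31, Slc25a33 and Slc25a36. The ETS site CCGGAAG was in 14.0% against 6.91%. TATAAA was in 2.33% against 12.4%. Carrier windows were richer in G and C (median 58%) than all windows (52.4%), so the shares are not matched for base composition. A match is a run of letters and says nothing of binding.

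The carriers of dicarboxylates and tricarboxylates split. Slc25a1, which exports citrate for fatty acid and sterol synthesis, read 2546 in Ad-control and 2334 in Ad-PDK4 (log2 difference -0.11). Slc25a11, which exchanges 2-oxoglutarate for malate in the malate-aspartate shuttle, read 2110 and 2901 on its only probe set. Its difference, 0.47 or 1.39-fold, was the highest of any carrier above both floors. Slc25a10, which exchanges malate or succinate for phosphate and serves gluconeogenesis, read 2373 and 1488, a difference of -0.66 or 1.58-fold lower. Slc25a11 and Slc25a10 thus lay on opposite sides of 0, and Slc25a1 between them. The second probe set of Slc25a10 read 725 and 722 and gave 0.0080, so its lower value rests on a single probe set of 2.

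Neither that carrier nor the orphan carrier Slc25a34 has more than 1 start site in the table, and the windows of both are shown as the other lower members with a sequence there that were above both floors. Slc25a10 is on the plus strand at chr11:120491587-120491836 and Slc25a34 on the minus strand at chr4:141623835-141624084, in GRCm38.p6, 5′ to 3′. Capitals mark ATTGG, the reverse complement of CCAAT, found once in the window of Slc25a34. None of the motifs above was found in the window of Slc25a10.
Slc25a10: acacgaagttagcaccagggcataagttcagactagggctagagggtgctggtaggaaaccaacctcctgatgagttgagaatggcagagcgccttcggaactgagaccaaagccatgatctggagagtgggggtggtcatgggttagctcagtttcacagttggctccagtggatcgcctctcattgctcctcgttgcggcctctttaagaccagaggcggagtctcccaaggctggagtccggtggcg
Slc25a34: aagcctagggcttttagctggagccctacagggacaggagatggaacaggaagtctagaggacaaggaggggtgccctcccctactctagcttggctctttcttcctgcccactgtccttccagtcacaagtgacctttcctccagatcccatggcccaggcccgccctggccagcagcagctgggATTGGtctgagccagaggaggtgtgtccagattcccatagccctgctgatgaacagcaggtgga

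The amino acid carriers leaned below 0 without a single member past 1.5-fold. Of 9 genes, 7 were above both floors, 6 of them below 0, and their median log2 difference was -0.19 (0.35 relative to the poly-A controls). Over all genes above both floors, 5031 of 10389 were below 0. Slc25a15, the ornithine carrier of the urea cycle, read 9320 in Ad-control and 7472 in Ad-PDK4 (-0.30). Its other probe set read 605 and 695 and gave 0.21. Slc25a13, citrin, the liver form of the aspartate/glutamate carrier that feeds aspartate to the urea cycle, read 7840 and 7476 (-0.054). Slc25a12, the form of brain and muscle, read 1133 and 892 (-0.33), and its dimmer probe set gave -0.33 as well. Both forms lay within the SD of 0.35 between probe sets over all genes, but Slc25a12 exceeded that of 0.22 within carriers.

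Slc25a22, a glutamate carrier, read 1749 and 1456 (-0.25). Slc25a44, a carrier of branched-chain amino acids, read 931 and 863 (-0.095), with its second measured probe set at -0.35. Slc25a29, a carrier of basic amino acids, read 471 and 408 (-0.19), with the second at -0.37. Slc25a38, which supplies glycine for heme synthesis, was the exception, with 617 and 730 (0.26). Slc25a18, the other glutamate carrier, was under both floors (81.9 and 83.1). Slc25a2, the second ornithine carrier, read 99.0 and 53.6 and gave no fold, as its Ad-control signal was below the floor of the other array.

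The carriers of cofactors and other nucleotides lay on both sides of 0. All 8 were above both floors, 5 of them above 0, as were 5358 of 10389 genes in all. Their median was 0.15 and their mean -0.048. Slc25a51, the NAD carrier, read 2096 in Ad-control and 2509 in Ad-PDK4 (0.27), and its 3 probe sets ran from 0.10 to 0.27. Slc25a17, the carrier of peroxisomes, read 1698 and 1866 (0.15). Slc25a42, a coenzyme A carrier, read 958 and 1071 (0.18). These members were all slightly higher in Ad-PDK4, each by less than the SD of 0.35 between probe sets over all genes, although Slc25a51 exceeded that of 0.22 within carriers.

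Slc25a33 and Slc25a36 carry pyrimidine nucleotides. Slc25a33 read 1438 and 1318 (-0.11), and Slc25a36 read 106 and 117 (0.16), just above the floor. Slc25a32, a carrier linked to folate and flavin, read 671 and 749 (0.17), but its dimmest probe set went from 283 to 187 and gave -0.58. Slc25a16, linked to coenzyme A, read 3132 and 2192, a difference of -0.50 or 1.41-fold lower, on its only probe set. Slc25a26, which brings S-adenosylmethionine into the matrix, read 333 and 202, a difference of -0.71 or 1.63-fold lower. Its other probe set read 161 and 179 and gave 0.17. The first is of the kind (_s_at) that can match several transcripts, so the direction of Slc25a26 is not settled.

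**Figure D2:**
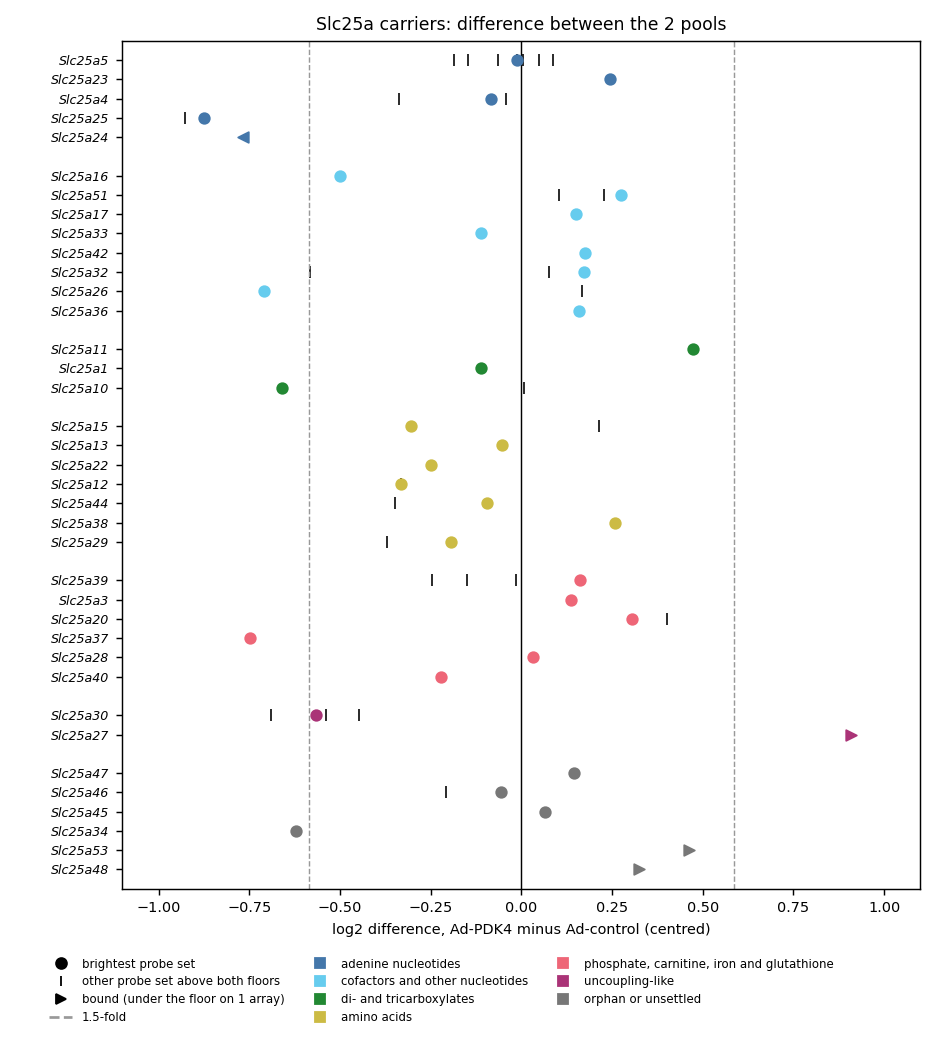
Log2 difference, Ad-PDK4 minus Ad-control, of each Slc25a gene that has a difference or a bound, by substrate class: circles are the brightest probe set, ticks the other probe sets above both floors, triangles bounds, and dashed lines 1.5-fold. The 2 measured probe sets of Slc25a25 lie together near -0.9, while those of Slc25a10 and Slc25a26 lie on either side of 0 or next to it.

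Carriers of phosphate, carnitine, iron and glutathione included the brightest readings after Slc25a5 and, in Slc25a37, a lower one. Slc25a3, which brings in phosphate for ATP synthesis, read 19764 in Ad-control and 21503 in Ad-PDK4 (log2 difference 0.14). Slc25a20, which exchanges acylcarnitine for carnitine and so admits long-chain fatty acids to beta-oxidation, read 8860 and 10831 (0.30). Its second probe set read 3277 and 4283 and gave 0.40. Slc25a20 thus had both probe sets higher in Ad-PDK4, by 1.23-fold and 1.32-fold.

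Slc25a37 is mitoferrin-1, the iron importer of erythroid cells, and Slc25a28 is mitoferrin-2, its widely expressed paralog. Slc25a37 read 1949 and 1149, a log2 difference of -0.75 or 1.68-fold lower, on its only probe set with a single symbol. Slc25a28 read 633 and 641 (0.032). Of the iron carriers, mitoferrin-1 was lower and mitoferrin-2 level. Beside it, 1 of 3 erythroid markers on the array was above the floor: Alas2, the erythroid enzyme that starts heme synthesis, at 1970 and 1449 (-0.43). Hba-a1 (8.5 and 34.8) and Slc4a1 (55.8 and 64.6) were under both floors. The summed signal of the 3 markers was 2035 in Ad-control and 1549 in Ad-PDK4. No marker was listed at 0. Their part in the difference of Slc25a37 was not tested.

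Slc25a39 and Slc25a40 supply the matrix with glutathione. Slc25a39 read 28768 and 31871 (0.16) on its brightest probe set, but its other 3 measured probe sets lay between -0.25 and -0.016, so it has no settled direction. Slc25a40 read 278 and 236 (-0.22). Without Slc25a37, then, the members of this class stayed between -0.22 and 0.30.

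Carriers resembling the uncoupling proteins were mostly dim. Slc25a30 (KMCP1) was the readable one, at 1684 in Ad-control and 1126 in Ad-PDK4, a log2 difference of -0.57 or 1.48-fold, just short of 1.5-fold. All 4 of its probe sets above both floors were lower, from -0.69 to -0.45. Slc25a27 (UCP4, known from brain) read 76.5 and 174, under the floor in Ad-control, and was at least 1.88-fold higher. Its other 3 probe sets were under both floors. Slc25a14 (UCP5) was under both floors (33.6 and 29.0).

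The members with no settled substrate class ranged from very bright to undetected. Slc25a47, a carrier found mainly in liver, read 20926 and 22900 (0.14). Slc25a46, an outer membrane protein of mitochondrial dynamics, read 3345 and 3185 (-0.056), and its second probe set gave -0.21. Slc25a45 read 1028 and 1065 (0.066). All of these were level between the pools to within the SD of probe sets. Slc25a34 read 261 and 168, a difference of -0.62 or 1.54-fold lower, on a single dim probe set. Slc25a53 (71.1 and 127) and Slc25a48 (64.4 and 116) were under the floor in Ad-control and at least 1.38-fold and 1.25-fold higher. Slc25a35 was under both floors (23.9 and 84.6).

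Probe sets bear on how far single values can be read. Of 15 carriers with more than 1 probe set above both floors, 9 had all of them on the same side of 0 and 6 did not: Slc25a5, Slc25a10, Slc25a15, Slc25a26, Slc25a32 and Slc25a39. Within these 15 carriers the pooled SD between probe sets was 0.22. The 8 probe sets of Slc25a5, all between -0.19 and 0.087, enter that figure. Of the 5 carriers at least 1.5-fold lower and above both floors, Slc25a25 had a second measured probe set that was also lower, of the kind _x_at. Its last probe set, under the floor in Ad-control, was at least 1.41-fold higher. Slc25a10 and Slc25a26 had a second measured probe set that was not lower, and Slc25a37 and Slc25a34 had none.

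**Figure D3:**
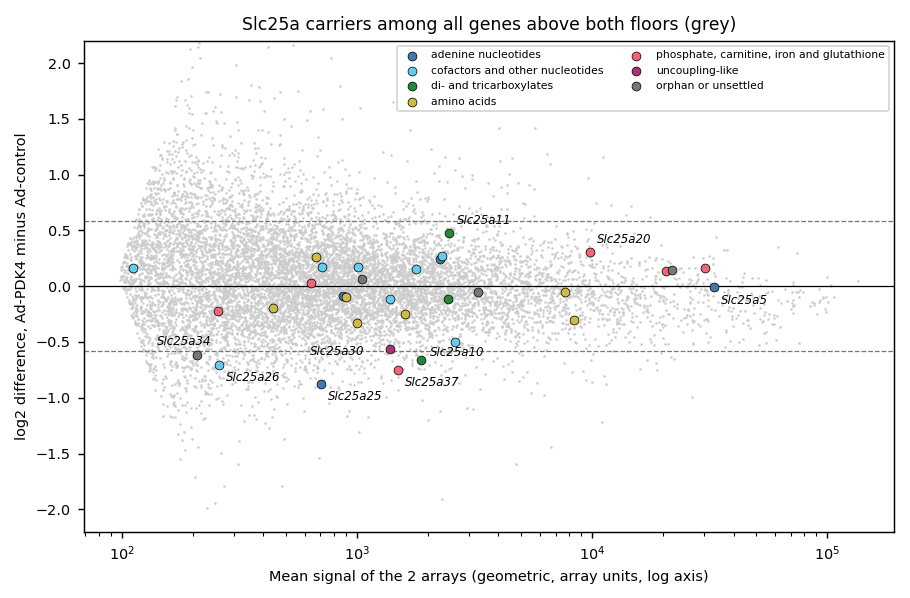
Log2 difference against mean signal (log axis) for the 33 Slc25a genes above both floors (coloured by class) over all 10389 named genes above both floors (grey); dashed lines mark 1.5-fold, and 53 genes lie outside the plotted range. The 13 brightest carriers all lie within 1.5-fold, and the 5 carriers below the lower dashed line have mean signals from 209 to 1879.

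Differences between the pools were wider among dim genes, so brightness is given beside the calls. Genes above both floors were cut into 5 bands of equal size by mean signal. In the brightest band (from 2259), all 13 carriers were within 1.5-fold, and 2.84% of all genes there were lower. In the next band (932 to 2259), 2 of 9 carriers were lower, Slc25a10 and Slc25a37, where 3.22% of all genes were. In the middle band, 1 of 6 carriers was lower, Slc25a25, where 4.48% of all genes were. Slc25a26 and Slc25a34 lay in the dimmer bands, in which 6.98% and 8.47% of all genes were lower. The SD of the differences over all genes was 0.53 in the dimmest band and 0.34 in the brightest.

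Relatives and partners of the carriers were read from lists of related genes. Of the family members that carry other symbols, Mtch2, an insertase of the outer membrane, read 14138 in Ad-control and 11919 in Ad-PDK4 (log2 difference -0.23), and Mtch1 read 480 and 564 (0.25). Ucp3 was near the floor (102 and 91.6), Ucp1, the uncoupling protein of brown fat, was under both floors (15.0 and 9.4), and Ucp2 was not analysed here. Mpc1, a subunit of the pyruvate carrier of the inner membrane, read 16218 and 14448 (-0.15). Mpc2 was not analysed here. The outer membrane channels Vdac1, Vdac2 and Vdac3, through which metabolites reach the carriers, were all within 1.5-fold, from -0.032 (Vdac3) to 0.23 (Vdac1).

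The machinery that imports and inserts carriers into the inner membrane had a median log2 difference of 0.048. Of its 13 genes, all above both floors, 1 was at least 1.5-fold lower and 0 were higher, where 5.20% of all genes were lower and 9.21% higher. The lowest was Agk, a subunit of the TIM22 translocase, at 388 and 232 (-0.73). The highest was Tomm40, the outer membrane import channel, at 640 and 908 (0.52). Timm22, the insertion channel itself, gave 0.48 on its brighter probe set and -0.72 on the other. Sideroflexins and calcium uniporter genes numbered 8, all within 1.5-fold on their brightest probe sets, with a median of 0.029, between Letm1 (-0.35) and Sfxn3 (0.15). Other probe sets went past 1.5-fold for Letm1 (0.84) and Sfxn2 (-0.998).

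Enzymes on either side of the carriers were set beside them by pathway. Of 23 such genes, 2 were at least 1.5-fold higher and 0 lower, shares (8.70% and 0%) to be read beside 11.0% and 5.58% of all genes. The median over the 22 above both floors was -0.076. The malate-aspartate shuttle runs through Slc25a11 (0.47), Slc25a13 (-0.054) and Slc25a12 (-0.33). Its enzymes gave -0.53 for Got1 (5808 and 3988), 0.073 for Got2, -0.089 for Mdh1 (down to -0.79 on its other probe sets) and 0.23 for Mdh2. The glycerol phosphate shuttle, which moves reducing equivalents without a carrier of this family, had Gpd2 higher, at 2710 and 4209 (0.65), and Gpd1 at 0.14. Of these shuttle genes, Gpd2 alone passed 1.5-fold, and all 3 of its probe sets were higher, up to 1.33.

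The urea cycle runs through Slc25a15 (-0.30) and Slc25a13. Its enzymes gave -0.34 for Cps1 (67433 and 52727), -0.43 for Asl (10695 and 7859), -0.031 for Otc and -0.0032 for Arg1. Ass1 gave -0.18 at dim signals, 314 and 275, on its only probe set above both floors. Oat, which makes and uses ornithine in the matrix, read 21323 and 14876 (-0.50). On their brightest probe sets these genes were all below 0 and all within 1.5-fold, although the probe sets of Otc ran from -0.48 to 0.51. Over all genes above both floors, 5031 of 10389 were below 0 and 8892 were within 1.5-fold. Arg1, Otc and Slc25a13 lay next to 0, and the median of all genes in the brightest band was itself -0.058. With loess centring Slc25a13 was at 3.5e-05, so the side of 0 depends on the centring for such values. For citrate export, Slc25a1 (-0.11) stood beside Cs at 0.52 and Acly, which splits citrate in the cytosol, at -0.37. For fatty acid entry, Slc25a20 (0.30) stood beside Cpt1a at -0.084, Cpt2 at 0.12 and Crat at 0.29. In gluconeogenesis, Slc25a10 (-0.66) stood beside Pck1 at 32383 and 22322 (-0.52). Pck2, the mitochondrial form of that enzyme, went from 88.9 to 300.1, under the floor in Ad-control, and was at least 3.25-fold higher. For methyl groups, Slc25a26 stood beside Mat1a (-0.068), which makes S-adenosylmethionine, and Gnmt (-0.27), which uses it.

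**Figure D4:**
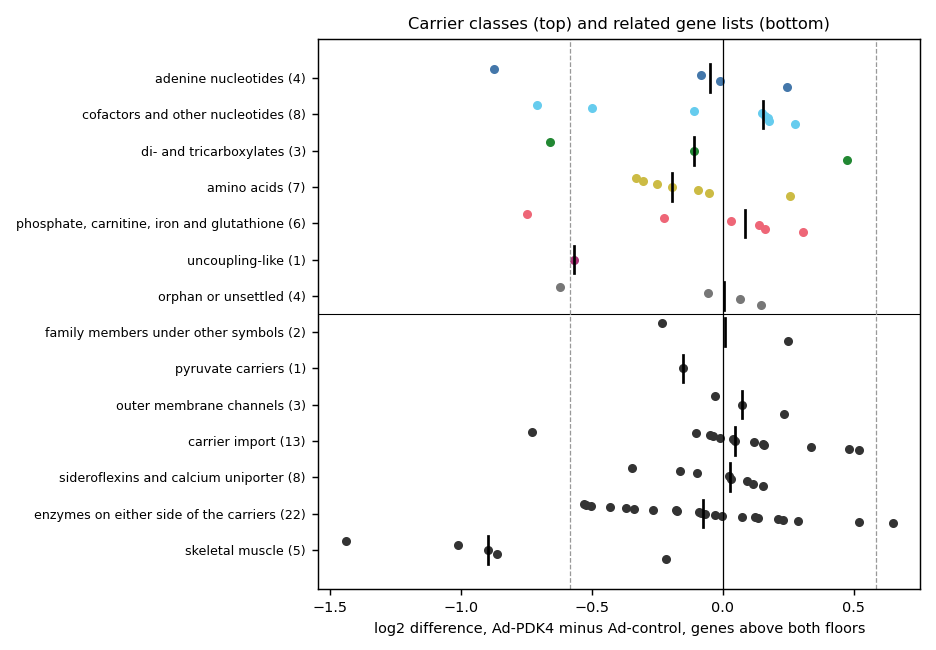
Log2 differences of genes above both floors in each Slc25a substrate class (top) and in related lists and skeletal muscle markers (bottom); each point is a gene, black bars are medians, numbers in parentheses count genes, and dashed lines mark 1.5-fold. Medians of the carrier classes with at least 3 genes lie between -0.19 (amino acids) and 0.15 (cofactors and other nucleotides).

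Transcripts of other tissues differed between these pools, and their levels stand here beside the carriers. All 5 skeletal muscle markers were above both floors, with a summed signal of 3124 in Ad-control and 1694 in Ad-PDK4. Of these, 4 were at least 1.5-fold lower in Ad-PDK4, where 5.20% of all genes above both floors were. Slc25a4 and Slc25a12, carriers known from muscle, were -0.084 and -0.33. The 6 acinar pancreas markers went the other way, all higher, with sums of 6202 and 55249. So did the 5 proliferation markers, with sums of 726 and 12395. All markers of both lists were at least 1.5-fold higher, where 9.21% of all genes above both floors were. Of 3 heart muscle markers, only Tnnt2 was above a floor (126 and 63.6). Of 3 brown fat markers, Ucp1 was under both floors, and Cidea (110 and 5.6) and Cox8b (197 and 89.6) were above the floor in Ad-control only. Of 3 germ cell markers, Prm1 read 655 and 303, and Tnp1 and Pgk2 were under both floors. No marker of these lists was listed at 0. The summed signal of the 44 carriers was 164810 in Ad-control and 167918 in Ad-PDK4. What part RNA of other tissues has in any carrier's difference was not tested.

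**Figure D5:**
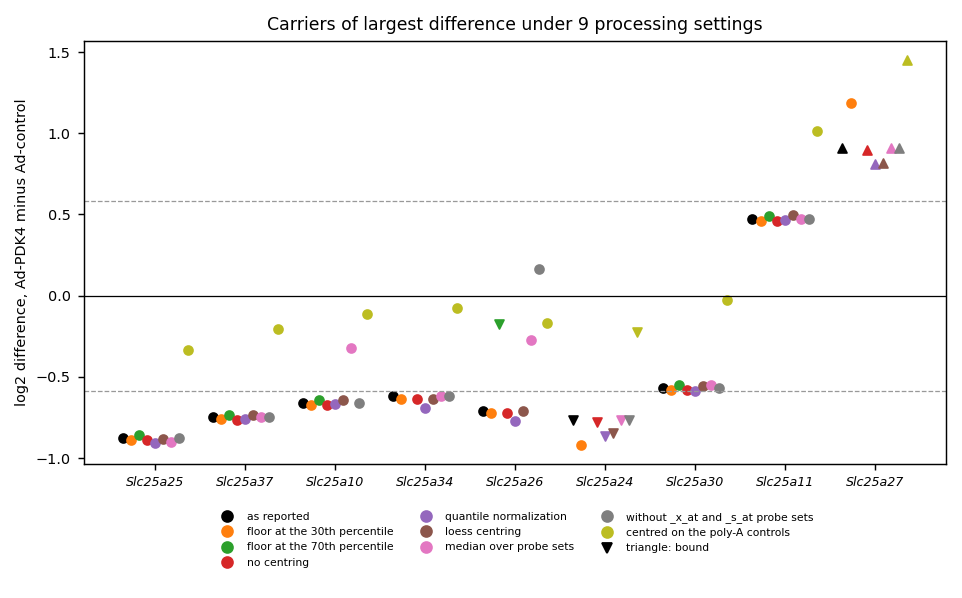
Log2 difference of 9 carriers under the reported processing (black) and 8 other settings (colours); triangles are bounds and dashed lines mark 1.5-fold. Slc25a25 and Slc25a37 stay beyond the lower line except when centred on the poly-A controls, while Slc25a26 goes from -0.77 to 0.17 among the settings.

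The lower carriers were not equally firm across processing settings. Slc25a25, Slc25a37 and Slc25a10 were still at least 1.5-fold lower when the 70th percentile set the floor. The count of lower carriers there was 3 of 30, beside 3.36% of all genes, and Slc25a24 and Slc25a34 could not be called. Slc25a10 was at -0.33 as the median of its probe sets. Slc25a26 was at 0.17 without probe sets of the kinds _x_at and _s_at. Relative to the poly-A controls, Slc25a25 was at -0.33 and Slc25a37 at -0.21, and neither reached 1.5-fold. Slc25a30 passed 1.5-fold after quantile normalization, at -0.59. Slc25a27 had no value on the higher floor and 1.18 on one set by the 30th percentile.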

How the data were processed

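Total RNA of pooled livers was labelled with biotin as cRNA for Affymetrix arrays, per the labels' protocols. The authors' deposited table holds 1 linear signal intensity per probe set; no label or header names its summary method. Names came from the platform annotation: 34958 probe sets carried a single symbol, 34754 of them found in RefSeq (GRCm38.p6), with 0 changed. Of 45037 non-control probe sets, 20151 were above both floors. The centring shift was -0.015. With n = 1 per group no test was run; counts use 1.5-fold. The named genes were all Slc25a members above a floor, and from the related lists the highest, the lowest and genes chosen for their role; further list genes were named after their values were seen. The members, classes and lists were chosen with earlier results of these data known. Alternatives were floors at the 30th and 70th percentile, no centring, quantile and loess centring (span 0.3), the median over probe sets, and dropping _x_at and _s_at probe sets; centring on poly-A controls was chosen after seeing the data. Steps were tested on simulated data (Python 3.11.15, numpy 2.4.6, pandas 2.3.3, statsmodels 0.14.6). The number of arrays limits the precision.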

Additional observations from a re-analysis of the deposited data

How the results depend on the processing

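Under 7 other settings, the poly-A reference aside, the median of the carriers stayed below 0, from -0.083 to -0.031, and the number of carriers above a floor was 30 to 41. The count of carriers at least 1.5-fold lower was 4 to 7, where 4.82% to 10.9% of all genes were. It was 3 of 30 when the 70th percentile set the floor, where 3.36% of all genes were. The count higher was 4 of 41 for a floor set by the 30th percentile, where 17.4% of all genes were higher. For one set by the 70th it was 0 of 30, where 6.57% of all genes were. Slc25a26 turned to 0.17 without _x_at and _s_at probe sets, where the median of the phosphate, carnitine, iron and glutathione class was -0.095. The uncoupling-like median was 0.30 on the lower of these floors, where Slc25a27 joins it. The loess-centred median of enzymes beside the carriers was 0.024. Without _x_at and _s_at probe sets, Slc25a26 is read by its other probe set, at 0.17, and Slc25a39 by one at -0.25. Fewer or other probe sets also enter with another floor. Beyond that, the cause was not tested.

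Centred on the poly-A controls, 16 of 38 carriers were higher and 0 lower, with a carrier median of 0.49. Of all genes, 47.9% were higher and 0.479% lower in that setting. Class medians were 0.49 (adenine nucleotides), 0.70 (cofactors), 0.43 (di- and tricarboxylates), 0.35 (amino acids), 0.63 (phosphate, carnitine, iron and glutathione), -0.024 (uncoupling-like) and 0.55 (orphan). Related lists gave 0.55 (family under other symbols), 0.39 (pyruvate carriers), 0.62 (outer membrane channels), 0.59 (carrier import), 0.57 (sideroflexins and uniporter) and 0.47 (enzymes). This follows from the construction, a constant shift of all values. No paired analysis was possible because each group is 1 array.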

Other observations

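Some carriers are next to each other in the RefSeq gene order, with 0 protein-coding genes between them. Slc25a47 and Slc25a29 are neighbours on chromosome 12: the first read 20926 in Ad-control and 22900 in Ad-PDK4, the second 471 and 408. Slc25a23 and Slc25a41 are neighbours on chromosome 17, at 2087 and 2446 for the first and at 4.5 and 4.7, under both floors, for the second. Slc25a24 and Slc25a54 are neighbours on chromosome 3, at 172 and 90.8 for the first and 6.0 and 8.6 for the second. Signals of different probe sets are not on a common scale, so these values say where each gene stood against the floor and not how the neighbours compare.

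A probe set that carries both the symbols Gm16867 and Slc25a37 was left out of the carriers. It read 25.9 in Ad-control and 44.2 in Ad-PDK4, under both floors, and so gave no second reading of Slc25a37.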
